A study of Vitis vinifera with 42 samples.

Results

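The genes described here encode 7 proteins of carbon fixation in the plastids of grape berries (Vitis vinifera cv. Cabernet Sauvignon): the small chain of RuBisCO (RbcS, VIT_217s0000g03690), RuBisCO activase (RCA, VIT_206s0004g05180), the B subunit of plastid glyceraldehyde-3-phosphate dehydrogenase (GAPB, VIT_218s0122g00960), 2 fructose-bisphosphate aldolases (FBA-4, VIT_204s0023g03010, and FBA-3, VIT_203s0038g00670, named here for their chromosomes), sedoheptulose-bisphosphatase (SBPase, VIT_213s0019g03350) and phosphoribulokinase (PRK, VIT_202s0109g00080). They are 7 of the 28940 genes with a value, were picked by gene identifier, and were picked with their levels in bagged and light-grown berries known. Their levels and differences are therefore given as a description and no p-value is printed for them; where the number of them past the threshold is given, the share over all tested genes stands beside it and nothing is read from it. All 7 passed the filter on low values that left 21902 genes for testing.

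The Calvin cycle fixes CO2 in the chloroplast stroma in 3 phases. RuBisCO joins CO2 to ribulose bisphosphate, the product is reduced to triose phosphate with ATP and NADPH from the light reactions, and most of the triose phosphate is rearranged to regenerate the acceptor. Young green grape berries carry chloroplasts and photosynthesise at a modest rate, and this capacity wanes as chlorophyll is lost during ripening. Several Calvin cycle enzymes are switched on in the light through the ferredoxin-thioredoxin system, and the nuclear genes of the small chain and the activase are classical light-responsive genes of leaves.

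Transcripts were measured by RNA-seq in deseeded berries of own-rooted vines of 1 vineyard and 1 season. T2 clusters, the control, stayed in the light and were sampled at 6 stages from E-L 29 to E-L 38. T1 clusters were enclosed in kraft paper bags from 3 weeks after flowering (WAF), at the E-L 29 stage, until harvest at E-L 38, and were sampled at the 5 stages after bagging. T8 clusters received the same bags at E-L 35, lost them at E-L 36, and were sampled at E-L 36, 37 and 38. On the E-L scale, E-L 29 is the peppercorn berry, E-L 35 the onset of coloring (véraison) and E-L 38 the ripe berry. Each of the 14 groups had 3 biological replicates, lettered A, B and C and each taken from 15 vines, with RNA from 50 berries, so that the 42 libraries divide into 18 of T2, 15 of T1 and 9 of T8. A bag changes the air around a cluster as well as its light, and these cannot be told apart here.

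Levels are FPKM, fragments scaled for transcript length and for the mapped reads of the library, as the authors computed them, so that levels of different genes can be set side by side per length. The summed FPKM of a library ranged from 561036 to 672526.1 (median 634536.4), and 21090 to 23537 genes were above 0. Read numbers per gene are not used here, so the values carry no counting interval. No libraries were identical. Differences are on the scale of log2(FPKM + 1) with their standard error (SE) from 1 limma fit over all libraries, and a gene was called where its adjusted p was under 0.05, with no limit on the fold. Transcripts annotated as seed proteins were present in the deseeded berries: the 19 genes annotated as seed storage or late embryogenesis proteins summed to between 56.4 and 46134.6 FPKM per library, with the highest values in T1 berries at E-L 31. They are called seed genes, seed markers or seed transcripts here by annotation only, and the tissue they came from was not tested. The skin gene UFGT, which glycosylates anthocyanidins in pigmented skin, stood at 8.79 FPKM in T2 berries at E-L 31 and at 90.6 at E-L 35, where T1 berries held 9.3 and 30.3 FPKM. From E-L 36 to harvest its means lay between 59.1 and 75.4 FPKM in T2, between 53.5 and 74.0 in T1, and between 30.6 and 48.1 in T8, and its part in the differences of the 7 genes was not tested.

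The labels of the 7 genes were checked against the annotation in the deposited table. The GO terms of 6 of the 7 place the protein in the chloroplast stroma, and only GAPB lacks that term, although its BLAST hit names the chloroplast enzyme. The KEGG term of RCA reads 26S proteasome regulatory subunit T4, whereas its BLAST hit is RuBisCO activase 2. Both proteins belong to the wide family of AAA ATPases, and the BLAST name is used here. The 7 genes lie on 7 different chromosomes, 2, 3, 4, 6, 13, 17 and 18. RbcS and RCA each have relatives elsewhere in the genome that could share reads with them, so their exact levels are uncertain to that degree. The large chain of RuBisCO is encoded in the plastid genome and is not analysed here.

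Carboxylation was led by RbcS, the most abundant of the 7 transcripts in 13 of the 14 groups by group mean. In T2 berries at E-L 29 its 3 libraries held 1526.92, 1307.39 and 1345.28 FPKM (1393.2 ± 117.3, SD, n = 3), which placed it between the 15th and the 19th most abundant gene of a library. At E-L 31 the T2 libraries held 1407.21, 790.74 and 952.33 FPKM, and the T1 libraries, bagged since E-L 29, held 234.26, 152.35 and 175.23 FPKM. The bagged and the light-grown libraries did not overlap, and the means were 187.3 ± 42.3 and 1050.1 ± 319.7 FPKM (SD, n = 3), a 5.61-fold lower level under the bag (log2 difference -2.46, SE 0.18). The summed level of the seed genes also differed there, from 10317.0 to 46134.6 FPKM in T1 and from 758.7 to 9900.1 in T2. Not all seed genes went the same way. Among those tested, 7 were called higher and 2 lower in T1. With a score over the seed genes as a covariate the difference of RbcS was -2.48. In such bulk samples, fewer cells of a type and less RNA per cell cannot be told apart.

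RbcS stayed lower in T1 berries at every later stage. At E-L 35 the T1 libraries held 65.49, 64.69 and 48.69 FPKM and the T2 libraries 174.77, 158.29 and 216.76 FPKM (log2 difference -1.60, SE 0.18). At harvest the T1 libraries held 12.98, 13.53 and 10.41 FPKM and the T2 libraries 54.27, 49.5 and 54.48 FPKM (log2 difference -2.02, SE 0.18). No T1 library reached the lowest T2 library of its stage at any of the 5 stages, and the fold between the means was 5.61, 3.07, 2.21, 3.55 and 4.29 in stage order. By harvest RbcS ranked between 6744th and 7828th in the T1 libraries and between 1737th and 2063rd in the T2 libraries.

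RCA, the ATP-driven chaperone that frees RuBisCO of inhibitory sugar phosphates, followed the same course. At E-L 31 its T2 libraries held 332.68, 196.97 and 229.54 FPKM and its T1 libraries 51.19, 40.86 and 42.72 FPKM, a 5.63-fold difference of the means. At harvest the T2 libraries held 11.58, 13.28 and 13.79 FPKM and the T1 libraries 1.89, 2.07 and 2.64 FPKM, a 5.86-fold difference. Between these stages the difference narrowed to 2.27-fold at E-L 36, where the means were 17.6 ± 3.44 in T1 and 40.0 ± 3.23 FPKM in T2 (SD, n = 3), and the groups overlapped at none of the 5 stages.

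**Figure D1:**
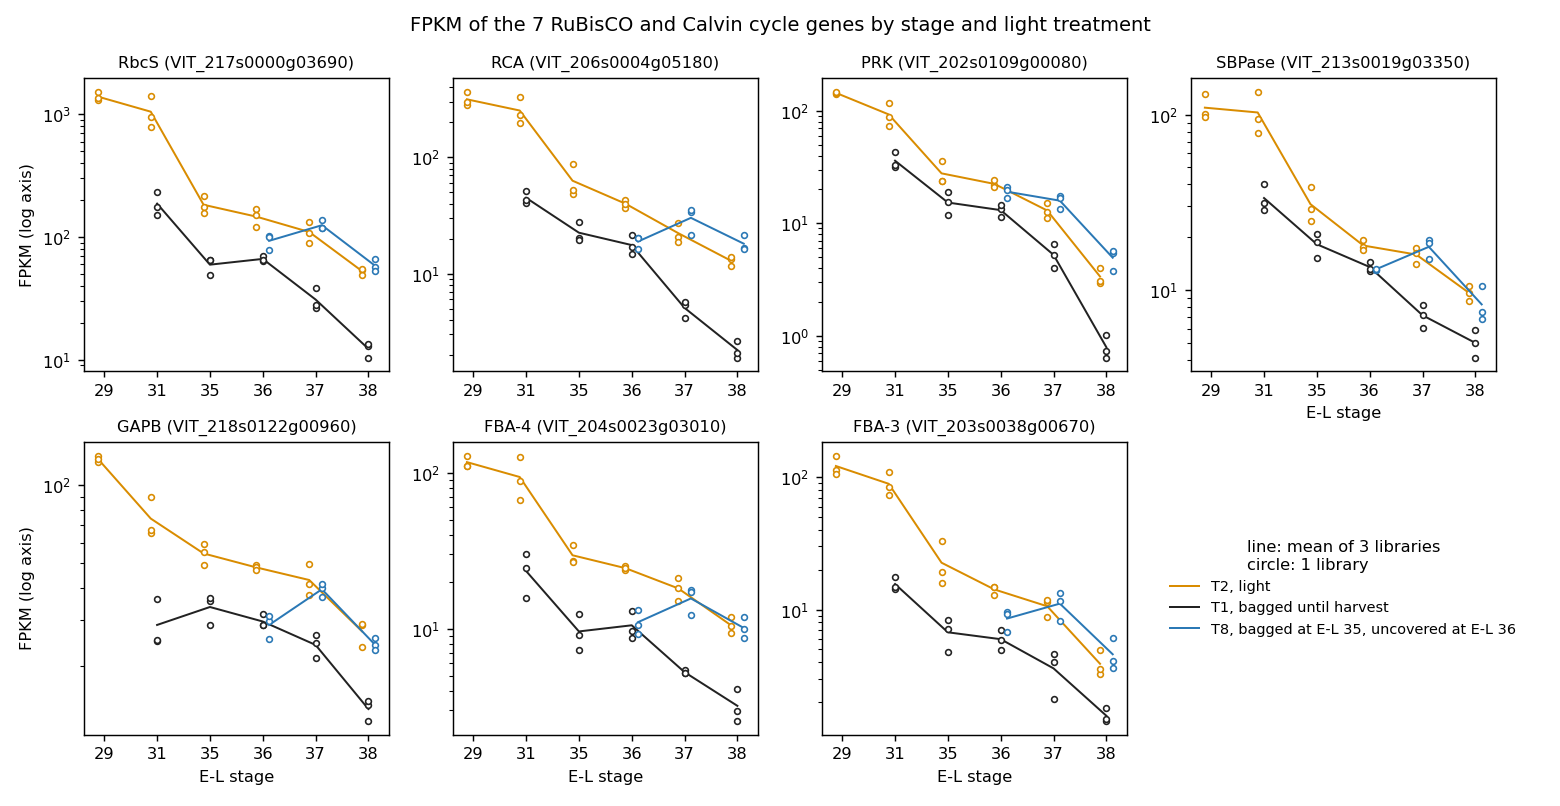
Level of each of the 7 genes (FPKM, log axis) against E-L stage, with a circle for each library and a line through the mean of 3 libraries, for T2 (light), T1 (bagged until harvest) and T8 (bagged from E-L 35 until E-L 36). The T1 libraries lie below the T2 libraries of the same stage for all 7 genes, and the T8 libraries lie below those of T2 at E-L 36 for all 7 and overlap them at E-L 37 for all 7.

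The reduction phase was represented by GAPB, the B subunit of the plastid dehydrogenase. GAPB was the steadiest of the 7 over the season. Its T2 libraries held 130.58, 123.08 and 126.5 FPKM at E-L 29 and 28.88, 23.57 and 29.03 FPKM at E-L 38, a 4.67-fold fall of the means, against 24.5-fold for RCA and 26.4-fold for RbcS. At E-L 31 the T1 libraries held 36.36, 24.91 and 25.17 FPKM and the T2 libraries 90.52, 65.3 and 67.29 FPKM, with no overlap (log2 difference -1.34, SE 0.13). Later differences were smaller, from -0.68 at E-L 35 and 36 to -0.94 at harvest.

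The regeneration phase was represented by both aldolases, SBPase and PRK. The aldolases condense triose phosphates to fructose and sedoheptulose bisphosphate. At E-L 31 FBA-3 held 109.0, 73.81 and 84.44 FPKM in T2 and 17.7, 14.32 and 14.76 FPKM in T1, 5.71-fold lower and the largest ratio of the 7 at that stage. FBA-4 stood at 93.6 ± 30.4 FPKM in T2 and at 23.4 ± 7.2 in T1 (SD, n = 3), a ratio of 4.0. The T1 and T2 libraries of both genes were apart at each of the 5 stages, and at harvest FBA-4 held 4.09, 2.97 and 2.54 FPKM in T1 and 11.83, 10.35 and 9.39 FPKM in T2.

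SBPase commits carbon to the regeneration of the acceptor by removing a phosphate from sedoheptulose bisphosphate. At E-L 31 it held 40.15, 31.35 and 28.62 FPKM in T1 and 134.99, 78.87 and 94.4 FPKM in T2, a 3.08-fold difference. At E-L 36 it showed the smallest T1 difference of any member at any stage, with 12.87, 13.08 and 14.48 FPKM in T1 and 17.48, 16.88 and 19.31 FPKM in T2 (log2 difference -0.38, SE 0.17). The groups were still apart there, although this difference did not pass the threshold.

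PRK, which makes the CO2 acceptor ribulose bisphosphate and is specific to the Calvin cycle, had the steepest seasonal decline. Its T2 libraries held 141.47, 143.85 and 147.61 FPKM at E-L 29 and 2.98, 3.07 and 4.05 FPKM at E-L 38, 42.9-fold lower. In T1 berries it held 42.83, 31.96 and 33.14 FPKM at E-L 31, below the T2 libraries at 118.07, 72.79 and 87.4 FPKM, and 0.73, 1.01 and 0.64 FPKM at harvest. The T1 difference for PRK therefore went from 2.58-fold at E-L 31 to 4.24-fold at harvest by the means, while on the log2(FPKM + 1) scale, which understates the change of low genes, it was -1.33 (SE 0.18) and -1.28.

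Over the 7 genes, the median T1 difference was -1.95 at E-L 31 (range -2.46 to -1.33) and then -1.41, -1.12, -1.37 and -1.28 in stage order, where the median of all tested genes was 0.0, 0.0, 0.0, -0.08 and -0.01. All 7 were called lower at E-L 31, where 16.0% of tested genes were called lower. The numbers called lower at E-L 35, 36, 37 and 38 were 7, 6, 7 and 6, beside 5.0%, 1.21%, 3.35% and 0.516% of tested genes. SBPase at E-L 36 and FBA-3 at E-L 38 were the members not called. In all 5 comparisons the 3 T1 libraries lay below the 3 T2 libraries for 7 of 7 genes, beside 17.4%, 14.2%, 9.5%, 18.5% and 8.89% of tested genes. The genes were chosen on these contrasts, and nothing is read from the counts. With the seed score as covariate the differences at E-L 31 ran from -2.55 (FBA-3) to -1.27 (GAPB).

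In these transcripts the bagged berries of E-L 31 lay near the light-grown berries of E-L 35. For 6 of the 7 genes the T1 libraries at E-L 31 overlapped the T2 libraries at E-L 35, with ratios of the means from 0.529 (GAPB) to 1.29 over the 7, and GAPB lay below them, beside 14.8% of tested genes. RbcS stood at 187.3 FPKM in T1 at E-L 31 and at 183.3 FPKM in T2 at E-L 35. From E-L 31 to 35 the levels of 6 of the 7 genes went down again in T1 with no overlap, beside 34.0% of tested genes, and GAPB, at 28.8 and then 33.8 FPKM, overlapped.

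**Figure D2:**
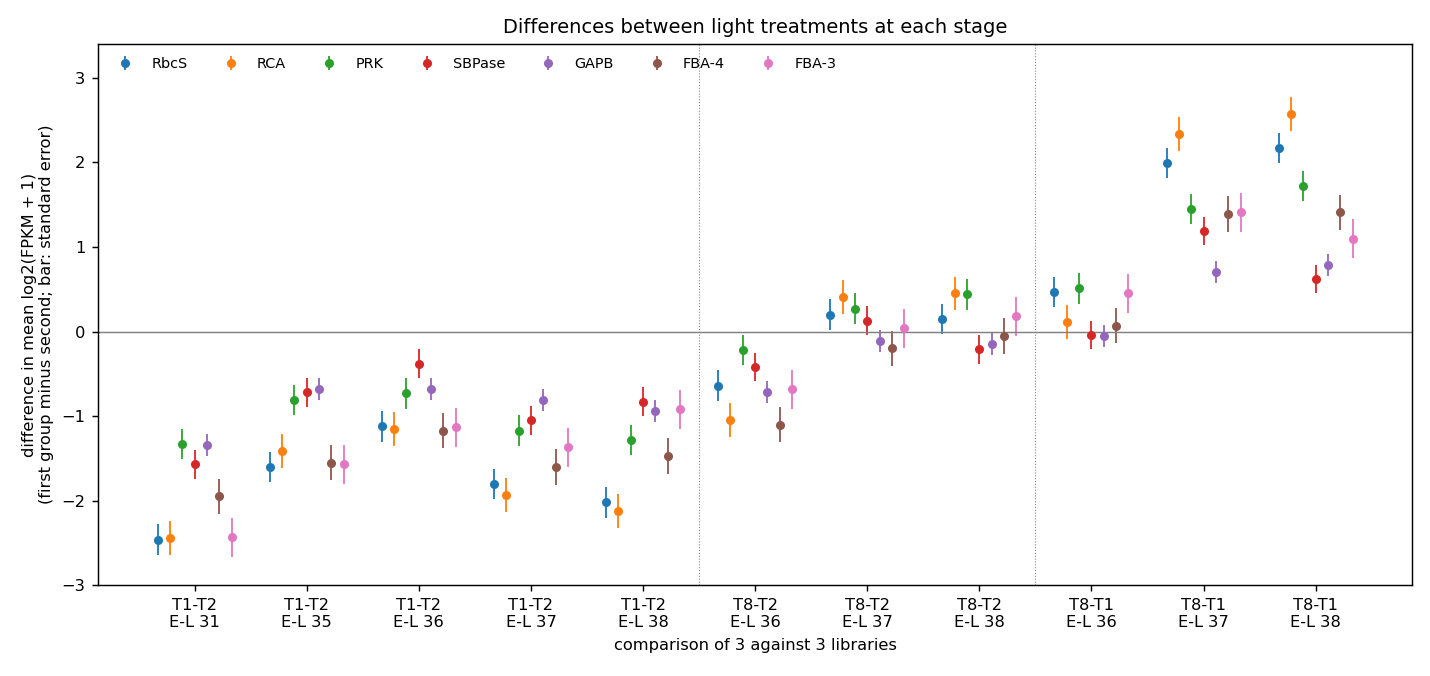
Log2 differences of log2(FPKM + 1) for the 7 genes in T1 against T2, T8 against T2 and T8 against T1, by E-L stage. Bars are standard errors from the limma fit over 42 libraries. T1 lies below 0 for every gene and stage, and T8 against T2 lies below 0 at E-L 36 and near 0 at E-L 37 and 38, where the medians were 0.13 and 0.15.

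In the light, the largest drop of the means came from E-L 31 to 35 for all of the 7 but GAPB and PRK. GAPB fell most from E-L 29 to 31 (1.7-fold, beside 1.36-fold from E-L 31 to 35). PRK fell most from E-L 37 to 38 (3.87-fold, beside 3.34-fold), although its log2 differences were -1.68 and -1.7. From E-L 31 to 35, T2 levels fell to between 17.5% and 73.3% of the earlier mean, and 7 of 7 genes were called lower, beside 35.7% of tested genes. RbcS fell from 1050.1 to 183.3 FPKM, a log2 difference of -2.48 (SE 0.18), RCA from 253.1 to 63.0 FPKM, and GAPB only from 74.4 to 54.5 FPKM. The earlier step from E-L 29 to 31 had 3 of 7 called lower (RbcS, GAPB and PRK), beside 31.3% of tested genes. The steps between E-L 35, 36 and 37 each had 2 of 7 called lower, beside 10.9% and 8.98%, and the step to harvest had 7 of 7, beside 16.1%. Median-of-ratios scaling moved the all-gene median of the E-L 31 to 35 step from -0.217 to -0.0552 and that of the E-L 36 to 37 step from 0.155 to 0.0.

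The short bagging of T8 was also accompanied by lower levels. At E-L 36, after a bag from E-L 35, RbcS held 101.7, 78.45 and 99.47 FPKM in T8 and 168.9, 120.98 and 150.13 FPKM in T2, 1.57-fold lower (log2 difference -0.64, SE 0.18). RCA held 20.42, 16.14 and 20.13 FPKM in T8 and 43.25, 36.8 and 39.98 FPKM in T2, 2.12-fold lower. The T8 libraries lay below the T2 libraries for both genes, and did so for all 7, beside 8.83% of tested genes.

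The median of the 7 was -0.68, where that of all tested genes was 0.07, and 4 of 7 were called lower (RbcS, RCA, GAPB and FBA-4), beside 2.64% of tested genes. PRK was the least altered, at 20.82, 16.82 and 19.62 FPKM in T8 and 21.91, 21.01 and 24.26 FPKM in T2. Against T1 at the same stage, the T8 levels overlapped for 5 of the 7 genes, while RbcS and PRK lay above T1, beside 18.3% of tested genes. Of all tested genes, 0.575% were called lower and 5.45% higher in that comparison. The T8 against T2 and T1 against T2 comparisons share the T2 libraries.

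Seed transcripts moved with this comparison. A score over the 13 seed genes tested, their average on the log2(FPKM + 1) scale, was 5.66 ± 0.62 in T8 and 2.09 ± 0.88 in T2 at E-L 36 (SD, n = 3), with an exact two-sided permutation p of 0.1, the smallest that 3 against 3 can give. The summed level of all 19 ranged from 774.1 to 2259.0 FPKM in T8 and from 140.4 to 186.8 FPKM in T2, at most 0.358% of a library, and no marker was at 0 in every library of either group. With this score as a covariate, which was planned as an alternative, the T8 differences were -0.68 for RbcS, -1.23 for RCA, -0.58 for GAPB, -0.91 for FBA-4, -0.90 for FBA-3, -0.49 for SBPase and -0.31 for PRK, all still below 0, with 1 of 7 called in place of 4. Deviations of the members from their group means correlated with those of the score at r between -0.21 and 0.18 over the 42 libraries, a description only.

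After the bags came off, the T8 berries held levels near those of T2. At E-L 37 RbcS held 117.99, 138.82 and 118.03 FPKM in T8, 108.02, 132.33 and 89.51 FPKM in T2 and 26.43, 28.03 and 38.51 FPKM in the still bagged T1. RCA held 21.67, 33.62 and 35.38 FPKM in T8, 20.71, 27.51 and 18.79 FPKM in T2 and 5.36, 4.19 and 5.66 FPKM in T1. For both genes T8 overlapped T2 and lay wholly above T1. The seed score was again higher in T8 than in T2, 4.92 ± 0.1 and 2.47 ± 1.0 (SD, n = 3, exact permutation p = 0.1), and its part in these levels was not tested further than by the covariate.

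Over the 7 genes at E-L 37 the median difference of T8 from T2 was 0.13 and the libraries of all 7 overlapped, where 2.48% of tested genes were called lower and 3.16% higher. The widest of these differences was that of RCA, at 0.41 with a 95% interval from -0.01 to 0.82 and means of 30.2 ± 7.46 FPKM in T8 and 22.3 ± 4.58 in T2 (SD, n = 3). Against T1 the median was 1.41, 7 of 7 were called higher, beside 4.78% of tested genes higher and 1.35% lower, and 7 of 7 lay above, beside 16.6%. At harvest, T8 overlapped T2 for 6 genes, and RCA alone lay above it, at 16.75, 21.3 and 16.25 FPKM and 11.58, 13.28 and 13.79 FPKM, beside 8.23% of tested genes. Of all tested genes, 0.0228% were called lower and 0.0457% higher there. Against T1 at harvest the median was again 1.41, 6 of 7 were called higher, beside 0.621%, and 7 of 7 lay above, beside 9.25%.

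From E-L 36 to 37, the ratio of the means in T8 ran from 0.833 (PRK) to 1.6 (RCA), the libraries of RbcS, RCA, SBPase and GAPB lay above those of E-L 36, beside 25.1% of tested genes, and those of the other 3 genes overlapped. In T2 the same step had ratios from 0.558 to 0.894 and in T1 from 0.288 to 0.81, and none of the 7 lay above, beside 33.5% and 24.5% of tested genes. From E-L 37 to 38 the levels of all 7 went down in T8, to ratios of 0.311 to 0.648, with no overlap, beside 23.5% of tested genes.

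The make-up of the 7 transcripts shifted as they declined. Their summed level in T2 went from 2327.8 ± 212.7 FPKM at E-L 29 to 120.2 ± 7.38 FPKM at E-L 38 (SD, n = 3), or from 0.41% to 0.0192% of all FPKM. In T1 the sum was 369.4 ± 73.8 FPKM at E-L 31 and 38.7 ± 2.47 FPKM at E-L 38. The share of RbcS in the sum went from 59.9% at E-L 29 to 43.9% at harvest in T2, and from 50.5% at E-L 31 to 31.7% at harvest in T1. The share of GAPB went from 5.46% to 22.5% in T2, and from 7.78% to 35.3% in T1. At harvest in T1, GAPB (12.17, 14.08 and 14.65 FPKM) and RbcS (12.98, 13.53 and 10.41 FPKM) overlapped, and this was the only group in which RbcS did not have the highest mean.

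**Figure D3:**
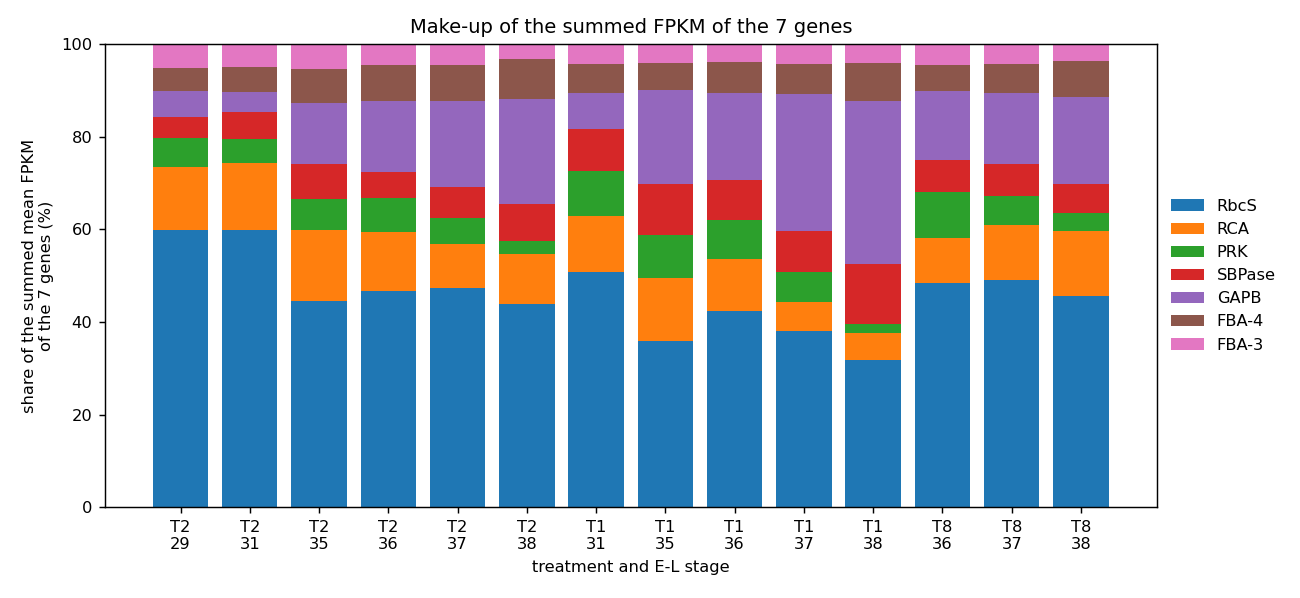
Share of each gene in the summed mean FPKM of the 7 genes (%), for the 14 groups of treatment and E-L stage. The RbcS part shrinks from 59.9% at T2 E-L 29 to 31.7% at T1 E-L 38, and the GAPB part grows from 5.46% to 35.3%.

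Below RbcS the order of the levels changed with the stage. At E-L 29 in T2 it ran RbcS, RCA, PRK, GAPB, FBA-3, FBA-4 and SBPase, where GAPB and FBA-3, FBA-3 and FBA-4, and FBA-4 and SBPase overlapped. At E-L 38 in T2 it ran RbcS, GAPB, RCA, FBA-4, SBPase, FBA-3 and PRK, so that PRK had gone from the third place to the last, and RCA and FBA-4, FBA-4 and SBPase, and FBA-3 and PRK overlapped. At E-L 38 in T1 it ran GAPB, RbcS, SBPase, FBA-4, RCA, FBA-3 and PRK, with overlap between GAPB and RbcS and between FBA-4 and RCA. Ordering by the median in place of the mean gave the same order in 9 of the 14 groups.

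The 7 genes varied together. Over the 14 group means of log2(FPKM + 1), the 21 pairs had Pearson r from 0.896 (PRK and GAPB) to 0.990 (RbcS and FBA-4), with a median of 0.955. Over the deviations of the 42 libraries from their group means, r ran from 0.494 to 0.82, with a median of 0.663. These points share library, depth and base composition, so the values are descriptions. The joint movement shows in single libraries: replicate A of T2 at E-L 31 was the highest and replicate B the lowest of its group for 7 of 7 genes, replicate C of T2 at E-L 35 was the highest for 7 of 7, and replicate B of T2 at E-L 37 likewise.

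Outside the chosen genes, the annotation gave 16 further genes placed in the plastid or in a step that only the Calvin cycle has, of which 15 could be tested. In T1 against T2 at E-L 31, 8 of them were lower and 3 higher (median -0.45). At E-L 35, 36, 37 and 38 the numbers lower were 3, 1, 5 and 2, with 1 higher at E-L 35, 1 higher at E-L 36 and none at the last 2 stages. In T8 against T2 at E-L 36, 2 were lower and 1 higher. At E-L 37 and 38 none was called in limma, and 2 and 1 had an unadjusted p under 0.05. In T8 against T1, 5 were higher at E-L 37 and 2 at harvest. Of all tested genes, 13%, 6.71%, 1.07%, 0.53% and 0.0639% were called higher in T1 than in T2 in stage order, and 9.27% in T8 than in T2 at E-L 36. The shares called lower were 16.0%, 5.0%, 1.21%, 3.35% and 0.516% in T1, and 2.64% in T8 at E-L 36. In T8 against T1, 4.78% were called higher at E-L 37 and 0.621% at harvest.

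The closest in pattern to the 7 was a plastid NADP-dependent glyceraldehyde-3-phosphate dehydrogenase, VIT_214s0068g00680, with r = 0.994 to their mean over the 14 group means, the highest of 12319 candidates. It was picked for this pattern, so its values are a description. At E-L 31 it held 17.84, 14.4 and 16.33 FPKM in T1 and 100.59, 63.27 and 61.76 FPKM in T2 (log2 difference -2.12, SE 0.21). The T8 level stood -0.73 from T2 at E-L 36 on the log2 scale, and 1.61 from T1 at E-L 37.

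The second activase gene, VIT_208s0007g00840, was lower in T1 as well, but by less than RCA in these values. It was named for its annotation and is also the gene closest in pattern to RCA (r = 0.985 over 14 group means), so its tests are not independent of that pattern. At E-L 31 it held 61.31, 45.24 and 49.25 FPKM in T1 and 139.08, 100.17 and 101.88 FPKM in T2 (log2 difference -1.11, SE 0.17, limma adjusted p = 1.3e-05), where RCA differed by -2.44. At E-L 35 and 36 the second activase did not pass (-0.49, adjusted p = 0.062, and -0.57, adjusted p = 0.083), and at E-L 37 and 38 it was lower again (-1.16 and -0.97). The difference between the genes was not tested. In T8 it was higher than in T1 at E-L 37 and 38, by 1.21 and 1.39.

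Of the abundant plastid isoforms, ribulose-phosphate 3-epimerase (VIT_217s0000g06450), which feeds PRK, fell in T1 from 99.0 to 39.0 FPKM at E-L 31 (-1.31, SE 0.12, adjusted p = 2.3e-09 in limma) and was also lower at E-L 35 and 37. Plastid triose-phosphate isomerase (VIT_203s0038g01780) was lower at E-L 31 (-0.45, SE 0.12, limma adjusted p = 0.0037). A further aldolase, VIT_201s0011g04350, was more abundant than any of the 7 at most stages, with a mean of 302.2 FPKM, and was called in none of the T1 or T8 comparisons with T2. In T2 its level rose from 253.8 FPKM at E-L 31 to 339.2 at E-L 35 (0.42, SE 0.07, adjusted p = 2.9e-06), the step at which FBA-3 and FBA-4 went down.

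Among genes singled out after their values were seen, a plastid phosphoglycerate kinase (VIT_219s0085g00380) and ribose-5-phosphate isomerase (VIT_214s0030g01900) were lower in T1 at E-L 31, with log2 differences of -1.07 and -1.11 (limma adjusted p = 6e-09 and 2.4e-07) and means of 20.7 and 20.5 FPKM beside 44.9 in T2 for each. Both effects were smaller at E-L 35 by the interaction test (0.80, adjusted p = 0.00019, and 0.90, adjusted p = 0.00078). Over the 15 genes this test gave 4 with an effect moved upwards and 2 downwards.

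**Figure D4:**
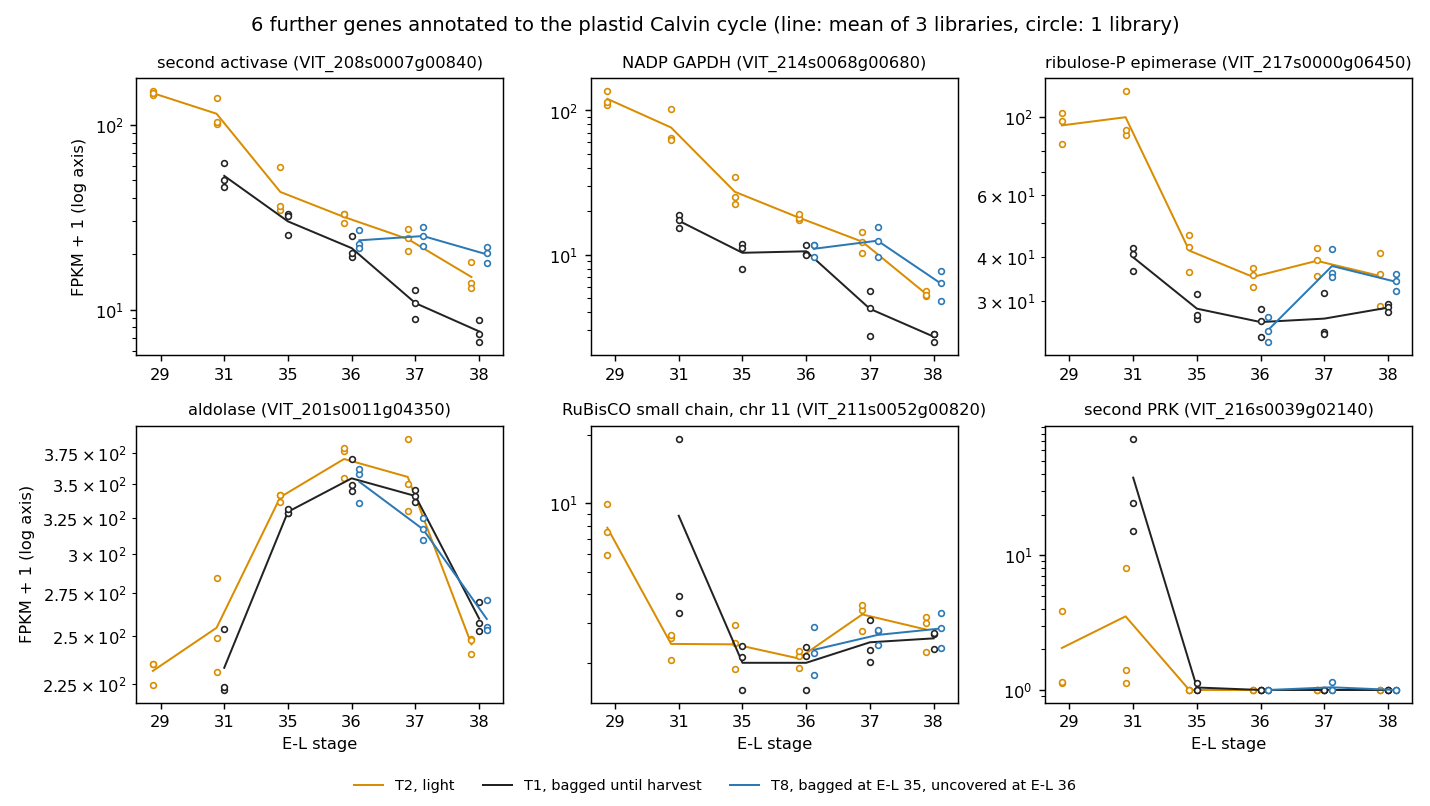
Levels (FPKM + 1, log axis) against E-L stage of 6 Calvin cycle genes outside the 7, with a circle per library and a line through the mean of 3, colored by treatment as in the plot of the 7 genes. The second activase and the NADP dehydrogenase follow the 7, the aldolase VIT_201s0011g04350 peaks at E-L 36, and the chromosome 11 small chain and second PRK have their highest library in T1 at E-L 31.

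Of the other Calvin cycle genes, the 3 called higher under the bag at E-L 31 were a second PRK and both small chain genes of chromosome 11. The second PRK (VIT_216s0039g02140, singled out after its values were seen) held 14.2, 72.56 and 23.48 FPKM in T1 and 0.4, 0.13 and 7.03 FPKM in T2 (log2 difference 3.69, SE 0.46, limma adjusted p = 3.7e-07), and was listed at 0 in nearly all libraries from E-L 35 on. The small chain gene VIT_211s0052g00820 held 2.31, 18.26 and 2.93 FPKM in T1 and 1.56, 1.05 and 1.65 FPKM in T2 (1.39, adjusted p = 0.0037), and VIT_211s0052g00810 held 4.21, 12.03 and 5.18 and 2.93, 3.49 and 4.45 FPKM (0.71, adjusted p = 0.012). Replicate B of T1 was the highest library for all 3 genes.

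That library also held the highest seed marker sum, 46134.6 FPKM or 7.7% of its total, and replicate C of T2, highest for the second PRK in its group, held 9900.1 FPKM where its 2 group mates were at or below 1011.5. Seed scores were 5.76 ± 0.72 in T1 and 3.87 ± 1.19 in T2 (SD, n = 3, exact permutation p = 0.2). Without replicate B of T1 the calls of both small chain genes were lost (0.58, adjusted p = 0.09, and 0.31, adjusted p = 0.24). The second PRK stayed called without it (3.05, adjusted p = 1.1e-05) and with the seed score as covariate (3.15, adjusted p = 1.5e-05). Fitted on the libraries of the 2 groups alone, none of the 3 was called (adjusted p = 0.1 for the second PRK, 0.28 and 0.31 for the small chain genes), and for the second PRK the spread of the fit over all libraries rests largely on groups listed at 0. At most 18.26 FPKM were reached by a chromosome 11 small chain gene, where RbcS held 152.35 FPKM in the same library, and reads that members of a gene family may share could make such low levels uncertain.

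The light reactions, which supply ATP and NADPH to the cycle, were counted beside it. Of 47 tested light-harvesting and photosystem genes, 41 were lower in T1 at E-L 31 and none higher (median -1.92), and 25, 11, 17 and 7 were lower at the later stages. In T8, 15 were lower and 1 higher than in T2 at E-L 36, and 15 and 9 were higher than in T1 at E-L 37 and 38. The shares over all tested genes given above for these comparisons stand beside these counts and those of the lists that follow. The 3 most abundant, photosystem I subunit II (VIT_205s0020g03180), oxygen-evolving enhancer protein 2 (VIT_212s0028g01080) and a light-harvesting chlorophyll a/b protein (VIT_210s0003g02890), differed by -1.94, -1.99 and -1.92 in T1 at E-L 31 (limma adjusted p = 1.6e-07, 4.8e-10 and 2.9e-06).

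Photorespiration salvages the product RuBisCO makes when it takes up O2. Of 26 tested genes, 12 were lower and 1 higher in T1 at E-L 31, and 7, 5, 8 and 1 were lower at later stages. Glycolate oxidase (VIT_219s0093g00510), picked as a pattern neighbour of RbcS with r = 0.973 over 14 group means and given as a description, stood at 10.9 and 37.8 FPKM in T1 and T2 at E-L 31 (-1.70, SE 0.20). Glutamate-glyoxylate aminotransferase (VIT_200s0225g00130) was lower, at 35.5 and 79.5 FPKM (-1.13, limma adjusted p = 5.8e-06). The abundant serine hydroxymethyltransferase VIT_205s0029g00310 stood at 96.6 and 103.9 FPKM (-0.12, adjusted p = 0.5), and a second, VIT_218s0001g04340, at 38.5 and 35.2 FPKM (0.13, adjusted p = 0.42).

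Of the 7 regulators and chaperones of the cycle, 5 were lower in T1 at E-L 31 and 1 each at E-L 35 and 37. Thioredoxin F (VIT_204s0023g00740), which reduces Calvin cycle enzymes in the light, fell from 47.7 to 22.5 FPKM (-1.04, SE 0.13, limma adjusted p = 4.9e-07), and thioredoxin M4 (VIT_219s0014g02890) from 75.8 to 37.4 FPKM (-1.0, adjusted p = 1.3e-07). The chaperonin subunit that binds the large chain (VIT_206s0004g00240) stood at 59.4 and 54.3 FPKM in T1 and T2 (0.09, adjusted p = 0.83).

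Other neighbours in pattern were a glutathione S-transferase of the IN2-1 type (VIT_206s0004g03690, r = 0.983 to RbcS), leaf ferredoxin-NADP reductase (VIT_204s0023g03510, r = 0.976 to RbcS), which makes the NADPH used by the cycle, and the photosystem II protein PsbS (VIT_218s0001g02740, r = 0.973 to RCA), which dissipates excess light energy, each over 14 group means. They were picked for this pattern and have no test. The T1 differences of the reductase and the transferase were -1.49 and -1.06 at E-L 31 and -0.92 and -0.78 at harvest.

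Cytosolic aldolase, phosphoglycerate kinase and triose-phosphate isomerase serve glycolysis. The list counted here also holds fructose-1,6-bisphosphatases, ribose-5-phosphate isomerases, a ribulose-phosphate epimerase and transketolases. Of 14 isoforms that are cytosolic or have no stated place, 5 were lower in T1 at E-L 31, 1 at véraison onset and none later. In limma the numbers with an unadjusted p under 0.05 at E-L 36, 37 and 38 were 1, 5 and 1. The most abundant, the aldolase VIT_208s0007g03830 with 707.8 FPKM on average, stood at 426.8 FPKM in bagged and 400.8 FPKM in light-grown berries of E-L 31 (0.10, adjusted p = 0.45). Phosphoglycerate kinase VIT_219s0085g00370 stood at 214.2 and 202.3 FPKM (0.08, adjusted p = 0.6), and triose-phosphate isomerase VIT_213s0019g01090 was lower, at 138.5 and 193.9 FPKM (-0.47, adjusted p = 7.5e-05). Of 42 tested glycolysis genes, 6 were lower and 10 higher in T1 at E-L 31.

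**Figure D5:**
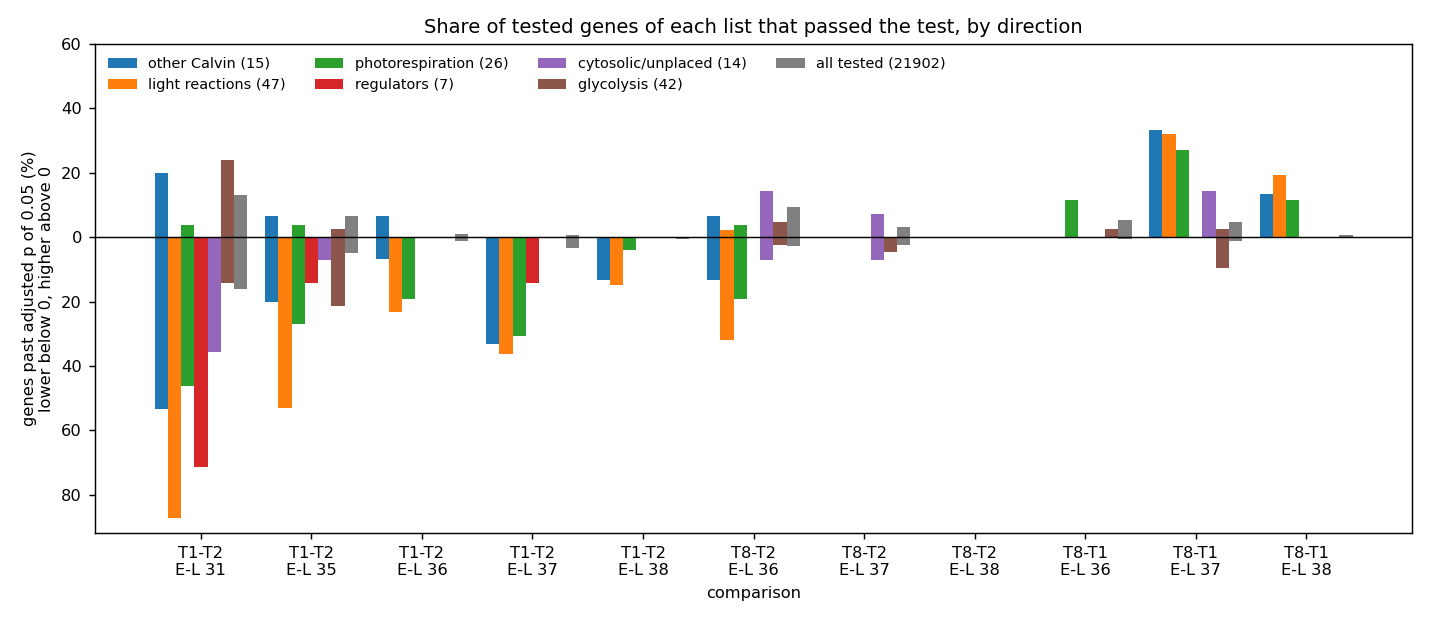
Share of the tested genes of each list that passed an adjusted p of 0.05 (%), lower below 0 and higher above 0, in the 11 comparisons of treatments, with the number tested in parentheses and all tested genes in grey. Light reactions reach 41 of 47 lower in T1 at E-L 31, and the other Calvin cycle genes 8 of 15 lower and 3 higher.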

How the data were processed

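RNA-seq of 42 libraries in 14 groups was used. According to the study's methods and the submitters' processing notes, the authors aligned single-end reads of poly(A) RNA to version 2 of the PN40024 genome (Bowtie in the methods, Bowtie2 2.2.5 in the notes) and deposited FPKM per gene and library, unfiltered and without scaling to a common total. The counting tool, its use of strand and the treatment of reads shared by paralogs are not given in the sources used here. Columns with the authors' own fold changes and significance calls were not used. FPKM carries no read counts, so no count model was used, and precision rests on the spread of 3 biological replicates.

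Expression was put on the log2(FPKM + 1) scale, and a gene entered the tests if 1 or more groups averaged 1 FPKM or above (21902 of 28940; 312 were at 0 everywhere). One limma 3.58.1 model (R 4.3.3) with 14 group means, a variance trend, 28 residual degrees of freedom and two-sided tests was fitted, with Benjamini-Hochberg adjustment over all tested genes within each comparison, and genes were called at an adjusted p under 0.05. The fit was tested on simulated data. Tables were made with Python 3.11.15 (scipy 1.17.1, numpy 2.4.6, pandas 2.3.3) and plots with matplotlib 3.10.9.

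The members and the gene lists were chosen with earlier results of these data known. Lists were drawn by annotation text. The genes named are the 7 members, the 3 most abundant of each list over the 42 libraries, all genes annotated as RuBisCO small chain or activase, and, for RbcS, RCA and the mean of the 7, the 5 annotated genes of at least 5 FPKM on average with the highest Pearson r over 14 group means. Others are marked as chosen after their values were seen. RefSeq symbols were matched for 7 of 7 members; its assembly differs from the authors' build, so no coordinates are given.

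Replicate letters did not pair the libraries: across groups, deviations from the group mean correlated at 0.00222 on average between equal letters (from -0.297 to 0.328) and at -0.00108 between unequal ones. Alternatives were a pseudocount of 0.1, no filter, median-of-ratios scaling, a replicate block, a fit on 2 groups only, the seed marker score as covariate, and each library left out. They were applied to named genes outside the 7 after seeing the data.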

Additional observations from a re-analysis of the deposited data

Results flagged for a closer look

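Differences between effects of the same treatment at different stages were the only kind of result singled out; groups of 3 libraries are too small to look for single outlying libraries. By the interaction term, the T1 effect at E-L 35 minus that at E-L 31 was positive for photosystem I subunit II (VIT_205s0020g03180, 1.53), oxygen-evolving enhancer protein 2 (VIT_212s0028g01080, 1.28), thioredoxin M4 (VIT_219s0014g02890, 1.11), glycolate oxidase (VIT_219s0093g00510, 0.94), thioredoxin F (VIT_204s0023g00740, 0.88), PsbS (VIT_218s0001g02740, 0.79), ribulose-phosphate epimerase (VIT_217s0000g06450, 0.77), glutamate-glyoxylate aminotransferase (VIT_200s0225g00130, 0.69), cytosolic or unplaced triose-phosphate isomerase (VIT_213s0019g01090, 0.54) and plastid triose-phosphate isomerase (VIT_203s0038g01780, 0.44). Glycolate oxidase and PsbS were picked for their pattern over the same groups, so no p is given for them, and for the other 8 genes the limma adjusted p lay between 1.2e-05 and 0.048. It was negative for the small chain gene VIT_211s0052g00820 (-1.66, adjusted p = 0.016 in limma), whose E-L 31 value rests on replicate B of T1. The T8 effect on PsbS at E-L 37 minus that at E-L 36 was 1.20.

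Other pairs of effects had all 3 libraries on opposite sides of the controls, and the difference was not tested unless stated. The aldolase VIT_201s0011g04350 was at -0.05 in T1 at E-L 35 and at 0.08 at E-L 38, and in T8 it was at -0.16 (E-L 37) and 0.08 (E-L 38). Triose-phosphate isomerase VIT_213s0019g01090 was at -0.47, 0.07 and -0.20 in T1 at E-L 31, 35 and 37. Its E-L 31 and 35 effects are the pair tested above (0.54), and the E-L 35 and 37 pair was not tested. The chaperonin VIT_206s0004g00240 was at -0.31, -0.26 and 0.13 in T1 at E-L 36, 37 and 38. In T8 at E-L 36 and 38, RCA (VIT_206s0004g05180) was at -1.05 and 0.45, PsbS (VIT_218s0001g02740) at -1.56 and 0.17, and the small chain gene VIT_211s0052g00810 at 0.24 and -0.37.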

How the results depend on the processing

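No called difference of a member or of a gene named by the rule changed its direction under an alternative. The counts of other Calvin cycle genes called, 15 tested, moved most when only the libraries of the 2 groups compared were fitted: T1 against T2 gave 5, 2, 0, 0 and 0 at the 5 stages from E-L 31 to harvest in place of 11, 4, 2, 5 and 2, and T8 against T1 gave 1 and 0 at E-L 37 and 38 in place of 5 and 2. This fit has fewer residual degrees of freedom. In T1 against T2 at E-L 36, no filter, a pseudocount of 0.1 and the replicate block each gave 1 in place of 2, and the block moved no other of the 16 counts. Median-of-ratios scaling gave 2 in place of 5 in T1 against T2 at E-L 37 and 5 in place of 3 from E-L 35 to 36 in T2. The seed score gave 1 in place of 3 in T8 against T2 at E-L 36, 2 in place of 5 in T8 against T1 at E-L 37, and 8 in place of 5 from E-L 29 to 31 in T2. The cause of these moves was not tested.

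With single libraries left out, the counts in T1 against T2 ran from 9 to 13, 3 to 4, 0 to 1, 2 to 4 and 1 to 2 at the 5 stages, those of T8 against T2 were 2 to 3, 0 to 0 and 0 to 0, those of T8 against T1 0 to 0, 2 to 5 and 2 to 2, and those of the T2 steps 4 to 7, 10 to 12, 2 to 4, 0 to 2 and 6 to 7. Of the members' differences, all 462 with a library left out stayed within 1 SD. The pseudocount moved 7 of 77, the seed score 6 and the scaling 2 by more than that. The number of members called did depend on the fit. With only the 2 groups compared, T1 against T2 gave 6, 4, 1, 2 and 2 in place of 7, 7, 6, 7 and 6. T8 against T1 gave 6 and 2 at E-L 37 and 38 in place of 7 and 6, and T8 against T2 at E-L 36 gave 5 in place of 4. In that last comparison the scaling gave 6, the seed score 1, and single libraries left out 3 or 4. With single libraries left out, T1 against T2 gave 5 or 6 at E-L 36 and at E-L 38. Shares over all tested genes are not given for these fits, and nothing is read from these counts. Interaction tests were not recomputed. Without counts, the precision at low levels, such as PRK in ripe bagged berries, is unknown.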

Other observations

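Transketolase VIT_215s0048g00370, which shuffles 2-carbon units in the regeneration phase and the pentose phosphate pathway, was singled out after its values were seen because its course departed from that of the 7 genes. In T2 it held 278.63, 403.86 and 401.02 FPKM at E-L 29 and 15.77, 13.29 and 18.09 FPKM at E-L 31, a log2 difference of -4.43 (SE 0.21, limma adjusted p = 6.6e-18), over a step at which RbcS differed by -0.45. It then stood at 4.38, 1.5, 0.977 and 0.617 FPKM at the later T2 stages. Bagged berries held more of it than the controls at E-L 35 and 36: 7.35 FPKM beside 4.38 in T1 at E-L 35 (0.62, adjusted p = 0.047), 3.68 beside 1.5 in T1 at E-L 36 (0.90, adjusted p = 0.014) and 3.67 beside 1.5 in T8 at E-L 36 (0.92, adjusted p = 0.0028). It was not called higher in T1 at E-L 31, 37 or 38, or in T8 at E-L 37 or 38. Both T1 calls were lost when only the 2 groups compared were fitted. The T1 call at E-L 36 was also not kept under every fit with a single library left out. In those fits 0 to 1 of the 15 other Calvin cycle genes were called, so it was lost where the count was 0. The seed marker score was also higher in T8 than in T2 at E-L 36, 5.66 ± 0.62 and 2.09 ± 0.88 (SD, n = 3, exact permutation p = 0.1). With this score as a covariate, 1 of the 15 other Calvin cycle genes was called in that comparison. That gene was lower, so the call of transketolase in T8 was lost. The part of the seed transcripts in its level was not tested further.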
